A study of Homo sapiens with 6 samples.

Results

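The DNA replication machinery was followed in F36P, a human leukaemia cell line with erythroid features, as 44 genes fixed by name. They cover origin licensing, the replicative helicase, the DNA polymerases with their clamp and clamp loader, and the supply of deoxynucleotides. All 44 have a row among the 16315 genes of the count table, and all 44 passed the filter on low values (a mean of at least 1 CPM, counts scaled to library size, over the 6 libraries). RNA-seq compared 3 libraries of cells that received an HDAC7 guide (sgHDAC7), labelled as HDAC7 knockout, with 3 libraries of cells given a non-targeting guide (sgNT), labelled as wild type. Cells of both groups were selected in 1 µg/ml puromycin for 4 days, and each group's libraries are labelled as biological replicates 1 to 3. HDAC7 is a class IIa histone deacetylase, and the series asks how it bears on erythroid differentiation. The labels do not say whether the transduced cells were pools or clones, nor how the replicate cultures were kept apart, so p-values measure only the spread between these libraries.

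DNA is copied once per cell cycle in steps that each use their own proteins. In G1 the origin recognition complex, with CDC6 and CDT1, loads the MCM2-7 ring on DNA, and geminin blocks CDT1 afterwards so that no origin is licensed again. At the start of S phase MCM10, CDC45 and GINS turn the loaded ring into the active helicase, after which the primase, the clamp PCNA and the polymerases copy the strands. Many of these genes are transcribed at the boundary of G1 and S under E2F control, and erythroid progenitors divide rapidly before they mature. In a bulk sample, a larger share of cells in S phase and more messenger RNA per cell cannot be told apart.

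The replication genes were on balance slightly higher in sgHDAC7. The summed level of the 44 genes was 6632, 6179 and 6105 CPM in sgHDAC7 and 6161, 5610 and 5613 CPM in sgNT, or 108.8% of the control mean. The groups overlapped in this sum, because sgNT replicate 1 lay above sgHDAC7 replicate 3. By gene, 33 of the 44 log2 fold changes were positive (75%, against 49.7% of all 13841 genes tested). The median was 0.12, the range -0.20 to 0.56, and the median of all tested genes -0.0016. Without sgHDAC7 replicate 1 the median of the 44 genes was 0.04. With group as the only term, edgeR called 1 of the 44 genes higher, GINS4, and none lower (adjusted p under 0.05; over all genes, 1.16% were called higher and 1.70% lower). At an unadjusted p under 0.05, edgeR gave 10 higher and 1 lower (22.7% and 2.27%, against 9.18% and 9.99% of all genes). DESeq2 called 3 higher, GINS4, MCM4 and RRM2, and 0 lower (2.08% of all genes higher). Without the filter on low values edgeR called GINS4 and MCM4 (0.993% of all genes higher). In 11 genes all sgHDAC7 libraries lay above all sgNT libraries (25%, against a background of 13%), and in 1 gene, RPA2, they lay below (background 12.2%). These counts describe genes chosen with earlier results of these libraries known.

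**Figure D1:**
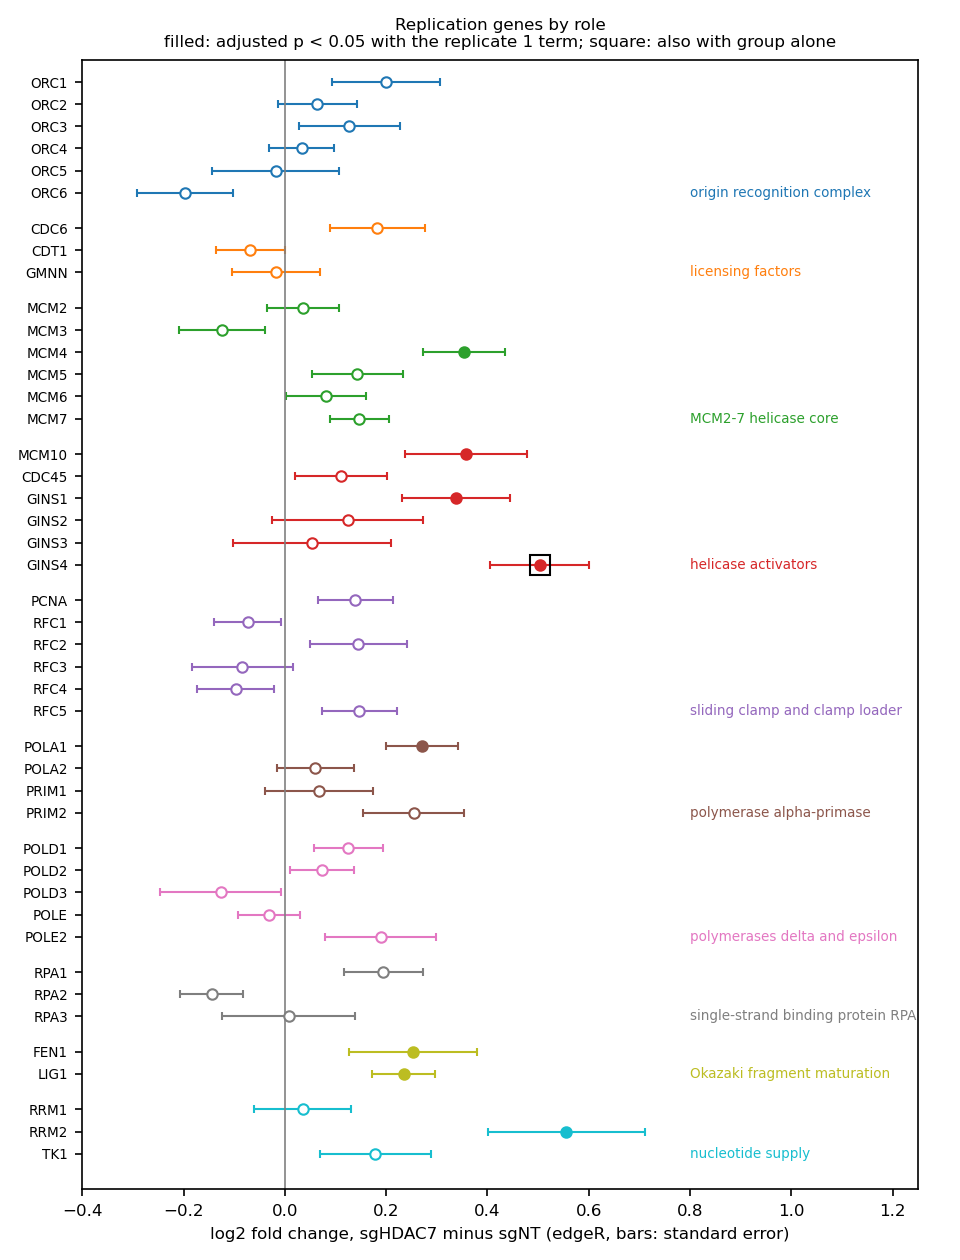
Log2 fold change (sgHDAC7 minus sgNT, horizontal axis) of the 44 replication genes, grouped by role on the vertical axis, with edgeR standard errors as bars. Filled points pass in the replicate-adjusted fit, and the squared point, GINS4, also passes with group alone. RRM2 and GINS4 lie furthest to the right, and ORC6 furthest to the left.

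Over the whole transcriptome the first replicate of either guide was unlike the other two. The chi-square per degree of freedom was 7.79 to 15.5 for pairs with replicate 1, against 3.21 and 3.51 for replicates 2 and 3 of the same guide. Results are therefore also given from an edgeR fit with an added term that sets replicate 1 apart, called the replicate-adjusted fit here. In that fit 8 of the 44 genes were higher and none lower (18.2% higher, against 5.78% of all genes higher and 6.81% lower). These were MCM4, MCM10, GINS1, GINS4, POLA1, FEN1, LIG1 and RRM2. In the fit on replicates 2 and 3 alone, 13 were higher and none lower (29.5%, against 9.72% and 10.9%), the same 8 with ORC1, CDC6, MCM7, PCNA and RPA1. With group alone and 1 library left out at a time, 0 of the 44 genes were higher without any 1 of the 3 sgHDAC7 libraries, sgNT replicate 2 or sgNT replicate 3, and calls over all genes fell to between 27 and 228. Without sgNT replicate 1, 10 were higher (5.29% of all genes higher), the same 8 with ORC1 and RPA1. Library totals ran from 10039693 to 12521195 counts, and single replication genes had 146 to 7845 counts in a library. HDAC7 itself had 194.2, 238.7 and 246 CPM in sgHDAC7 and 449.9, 460.4 and 461.8 CPM in sgNT (log2 fold change -1.02 ± 0.09 SE, edgeR adjusted p = 0.00139). All 3 sgHDAC7 libraries held less HDAC7 message than any control.

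**Figure D2:**
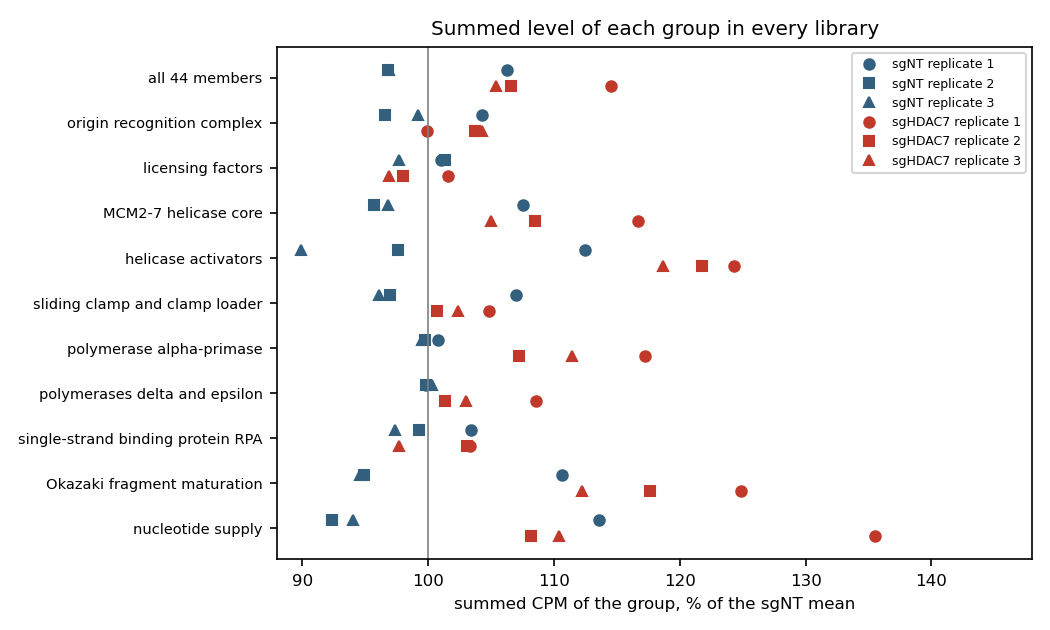
Summed CPM of each group of replication genes in every library (horizontal axis, percent of that group's sgNT mean), one row per group and marker shapes for replicates 1 to 3. The sgHDAC7 libraries lie to the right of all sgNT libraries for helicase activators, polymerase alpha-primase, delta and epsilon polymerases and Okazaki fragment maturation, and sgNT replicate 1 lies right of the other controls in several groups.

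E2F factors bind a short GC-rich motif near the start of many S phase genes, so the promoters of the replication genes were searched for it. RefSeq promoters (GRCh38.p14, 250 bases before to 50 bases after the start) were at hand for 38 of the 44 genes; GINS4, MCM4, MCM5, POLD3, RPA2 and RPA3 had no entry. The words TTTCCCGC, TTTGGCGC, TTTGCCGC and TTTCGCGC were searched on both strands, and overlapping words were merged into a single stretch. Of the 38 promoters, 17 held such a word (44.7%), against 3.33% of all 27305 promoters of that length and 5.52% of the 9941 that belong to tested genes. The CCAAT box (CCAAT, both strands) stood in 22 (57.9%, against 35.7% and 37.0%). The other words searched were GGGCGG (71.1% of the 38, 69.7% for tested genes), CACGTG (13.2% and 10.3%), TTTGAA or TTCGAA (5.26% and 11.2%) and AGATAA or TGATAA (2.63% and 8.46%). Median log2 fold changes were 0.12 for the 17 replication genes with an E2F word (-0.12 to 0.34) and 0.11 for the 21 without one (-0.20 to 0.56). The sequences below show both kinds among the genes that were higher in the replicate-adjusted fit, and MCM6, which was not called. Capitals mark E2F words and CCAAT boxes (read as CCAAT or ATTGG), each sequence running 5′ to 3′ on the gene's strand.
GINS1 (chr20:25407423-25407722, plus strand): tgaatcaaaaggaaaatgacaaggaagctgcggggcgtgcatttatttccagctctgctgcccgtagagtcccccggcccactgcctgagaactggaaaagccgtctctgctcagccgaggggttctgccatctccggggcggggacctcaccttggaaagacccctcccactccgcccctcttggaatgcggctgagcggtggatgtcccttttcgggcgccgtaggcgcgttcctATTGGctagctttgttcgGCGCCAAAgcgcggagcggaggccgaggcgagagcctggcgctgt
POLA1 (chrX:24693668-24693967, plus strand): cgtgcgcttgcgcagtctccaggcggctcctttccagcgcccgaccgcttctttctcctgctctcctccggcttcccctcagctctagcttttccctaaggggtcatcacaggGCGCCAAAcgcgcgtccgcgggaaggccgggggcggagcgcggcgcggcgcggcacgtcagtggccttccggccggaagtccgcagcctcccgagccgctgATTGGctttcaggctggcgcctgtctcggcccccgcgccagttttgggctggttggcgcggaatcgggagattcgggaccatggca
LIG1 (chr19:48170295-48170594, minus strand): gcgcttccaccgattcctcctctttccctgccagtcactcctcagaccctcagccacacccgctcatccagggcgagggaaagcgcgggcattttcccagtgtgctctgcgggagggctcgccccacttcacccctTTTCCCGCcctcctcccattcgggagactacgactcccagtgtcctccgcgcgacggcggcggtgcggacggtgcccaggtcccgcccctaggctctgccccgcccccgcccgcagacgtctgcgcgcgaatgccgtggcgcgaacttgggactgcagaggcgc
MCM10 (chr10:13161308-13161607, plus strand): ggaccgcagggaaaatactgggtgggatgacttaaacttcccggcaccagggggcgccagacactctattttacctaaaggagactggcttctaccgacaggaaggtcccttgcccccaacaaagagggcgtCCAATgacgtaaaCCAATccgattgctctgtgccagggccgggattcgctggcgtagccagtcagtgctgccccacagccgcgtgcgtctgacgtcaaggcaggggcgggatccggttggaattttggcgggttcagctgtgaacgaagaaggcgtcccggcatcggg
RRM2 (chr2:10122489-10122788, plus strand): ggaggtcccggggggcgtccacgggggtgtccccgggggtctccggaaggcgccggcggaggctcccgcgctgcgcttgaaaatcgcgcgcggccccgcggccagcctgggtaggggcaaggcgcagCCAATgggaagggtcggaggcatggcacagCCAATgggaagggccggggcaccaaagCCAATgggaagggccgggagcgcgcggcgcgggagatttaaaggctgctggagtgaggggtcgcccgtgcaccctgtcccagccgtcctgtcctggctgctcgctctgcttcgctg
MCM6 (chr2:135876394-135876693, minus strand): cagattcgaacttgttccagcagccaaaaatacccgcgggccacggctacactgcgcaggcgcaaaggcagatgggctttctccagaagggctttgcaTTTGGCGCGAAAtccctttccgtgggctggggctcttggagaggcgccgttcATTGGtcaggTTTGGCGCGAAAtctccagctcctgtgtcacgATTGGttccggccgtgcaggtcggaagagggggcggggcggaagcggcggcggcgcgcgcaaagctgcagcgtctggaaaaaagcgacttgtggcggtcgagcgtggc
GINS1, POLA1 and LIG1 each hold 1 E2F word, starting 5 bases after the transcription start in GINS1, and 137 and 114 bases before it in POLA1 and LIG1. RRM2 and MCM10 hold none of these words in the window, but 3 and 2 CCAAT boxes. MCM6 holds 2 merged stretches, TTTGGCGCGAAA, starting 152 and 90 bases before the start, and had a log2 fold change of 0.08 ± 0.08. FEN1, the remaining gene of the 8 with an entry, holds neither motif. A word match is a description of these letters and not evidence of binding. Only exact words were searched, so a promoter without them may still hold a related E2F site.

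Origin recognition and licensing genes were near their control level. The summed level of ORC1 to ORC6 was 372.1, 386.5 and 388.5 CPM in sgHDAC7 and 388.5, 359.7 and 369.6 CPM in sgNT. No member of the complex passed with group alone or in the replicate-adjusted fit. ORC1, the largest and cell-cycle-regulated subunit, had 76.5, 78.9 and 78.4 CPM in sgHDAC7 and 79.0, 57.7 and 67.2 CPM in sgNT. The control of replicate 1 was as high as the sgHDAC7 libraries, and the other controls were lower. ORC1 accordingly passed without sgNT replicate 1 (log2 0.32, edgeR adjusted p = 0.0268) and in replicates 2 and 3 alone (0.33, 0.00262), but not over all 6 libraries (0.20 ± 0.11, adjusted p = 0.346). ORC6, the smallest subunit, had the lowest fold change of all 44 genes, with 61.5, 54.9 and 62.9 CPM in sgHDAC7 and 76.5, 66.5 and 62.8 CPM in sgNT (log2 fold change -0.20 ± 0.10, edgeR adjusted p = 0.295). The groups overlapped by a narrow margin, at sgHDAC7 replicate 3 and sgNT replicate 3. ORC2, ORC3, ORC4 and ORC5 had log2 fold changes from -0.02 to 0.13.

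Among the licensing factors, CDC6, the ATPase that recruits the MCM ring, had 53.5, 54.3 and 49.3 CPM in sgHDAC7 and 51.4, 43.1 and 43.9 CPM in sgNT. Its log2 fold change was 0.18 ± 0.09 (edgeR adjusted p = 0.324), and it passed in replicates 2 and 3 alone (0.25, adjusted p = 0.0406). CDT1, its partner in loading, had 194.7, 188.1 and 179.4 CPM against 185.3, 209.4 and 194.6 CPM, a log2 fold change of -0.07 ± 0.07. Geminin (GMNN), the inhibitor of CDT1, had 84.6, 78.6 and 88.8 CPM against 94.4, 79.5 and 81.5 CPM. Per exon length, geminin made up 51.6% ± 2.20 of the summed CDT1 and geminin level in sgHDAC7 and 50.8% ± 3.74 in sgNT (SD, n = 3), so the balance of activator and inhibitor messages differed by less than the spread between libraries.

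The genes of the MCM2-7 ring were among the most abundant of the 44. Of the 6, 1 passed in the replicate-adjusted fit, MCM4, where 5.78% of all genes were higher. MCM4 had 631.7, 614.3 and 585.1 CPM in sgHDAC7 and 536.0, 454.7 and 442.1 CPM in sgNT. All sgHDAC7 libraries were higher, by 1.28-fold on average (log2 fold change 0.35 ± 0.08, edgeR adjusted p = 0.0516), a value just short of the threshold. MCM4 passed in the replicate-adjusted fit (log2 0.36, edgeR adjusted p = 0.00176) and in DESeq2 (0.35, adjusted p = 0.00729). MCM7 was the other ring gene whose groups did not overlap (13% of all genes lay higher in sgHDAC7 without overlap). It had 542.6 to 557.8 CPM in sgHDAC7 and 485.9 to 515.6 CPM in sgNT (log2 fold change 0.15 ± 0.06, edgeR adjusted p = 0.202). MCM5, MCM6 and MCM2 had log2 fold changes of 0.14, 0.08 and 0.04, with overlapping groups. MCM3 was the only ring gene with a negative value. It had 284.9, 250.9 and 242.3 CPM in sgHDAC7 and 310.4, 273.9 and 264.2 CPM in sgNT, and the groups overlapped because sgHDAC7 replicate 1 was above 2 of the controls (log2 fold change -0.12 ± 0.09, edgeR adjusted p = 0.468).

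Because the ring takes up each subunit in equal number, the share of each subunit in the summed ring level, per exon length, was also computed. MCM4 took 21.0%, 22.1% and 21.7% in sgHDAC7 and 19.3%, 18.3% and 17.6% in sgNT. MCM3 took 12.8%, 12.2% and 12.2% against 15.1%, 14.9% and 14.2%. MCM2 was also lower in each sgHDAC7 library, with 13.6%, 14.0% and 13.8% against 14.6%, 14.3% and 15.2%. These 3 shares separated the groups without overlap, but no test was made, and since shares sum to 100% a higher share of MCM4 lowers the others. MCM7 took 23.2% ± 1.12 and 22.9% ± 0.75 and MCM5 16.5% ± 1.08 and 16.4% ± 0.29 (SD, n = 3). MCM6 took 12.16% to 12.95% in sgHDAC7 and 12.75% to 13.03% in sgNT, and in these 3 genes the groups overlapped.

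**Figure D3:**
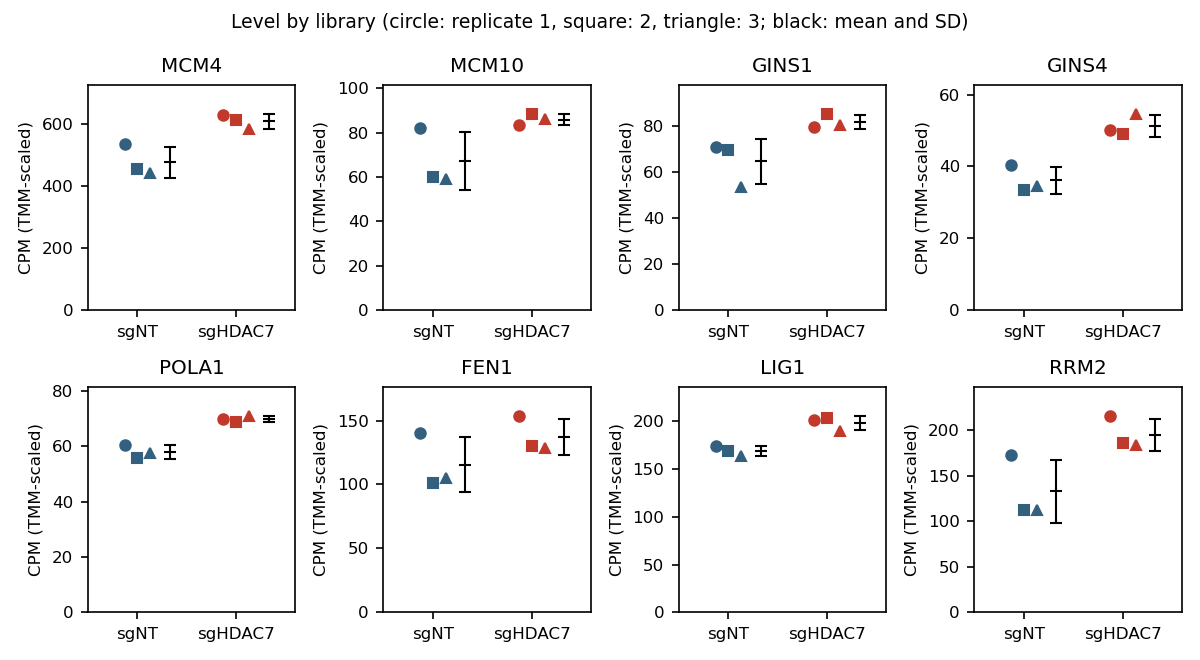
CPM (TMM-scaled, vertical axes from 0) in every library for the 8 genes that were higher in the replicate-adjusted fit, sgNT in blue and sgHDAC7 in red, with marker shapes for replicates 1 to 3 and the mean with SD of 3 libraries in black. In all 8 genes sgNT replicate 1 (circle) is the highest control, and in RRM2, MCM10 and FEN1 it stands well above the other controls.

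Of the helicase activators, GINS4 rose with group alone, and MCM10 and GINS1 also passed in the replicate-adjusted fit. Their summed level was 337.5, 330.6 and 322.4 CPM in sgHDAC7 and 305.5, 264.9 and 244.1 CPM in sgNT, or 121.6% of the control mean, without overlap. All 6 log2 fold changes were positive (median 0.23; 49.7% of all genes were positive). Of the 6, 1 passed with group alone and 3 in the replicate-adjusted fit, where 1.16% and 5.78% of all genes were higher. GINS4, which encodes the SLD5 subunit of the GINS complex (8:41529206-41545046, plus strand, GRCh38), had 50.1, 49.0 and 54.6 CPM in sgHDAC7. Its controls had 40.5, 33.5 and 34.5 CPM, so every sgHDAC7 library lay above every control. The rise was 1.42-fold (log2 fold change 0.50 ± 0.10, edgeR adjusted p = 0.0317; 0.51 and 0.0033 in the replicate-adjusted fit). When single libraries were left out, GINS4 kept this call only without sgNT replicate 1 (log2 0.59, edgeR adjusted p = 0.00171). Without any of the other 5 libraries it had log2 values of 0.45 to 0.53 and adjusted p-values of 0.0619 to 0.155. An antisense gene covers 21.2% of the GINS4 exons, and the use of strand in counting is not given in the sources used here, so reads of the pair may not be told apart.

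The other GINS genes followed unevenly. GINS1, the PSF1 subunit, had 79.6, 85.2 and 80.2 CPM in sgHDAC7 and 70.9, 69.6 and 53.5 CPM in sgNT, again without overlap. It was 1.26-fold higher (log2 fold change 0.34 ± 0.11, edgeR adjusted p = 0.125) and passed in the replicate-adjusted fit (adjusted p = 0.0355). GINS2 and GINS3, the PSF2 and PSF3 subunits, were low messages with 21.0 to 31.5 CPM and 13.4 to 17.8 CPM over the 6 libraries. Their log2 fold changes were 0.12 ± 0.15 and 0.05 ± 0.16, and their groups overlapped. GINS2 was higher in sgHDAC7 replicate 1 than in its control (log2 ratio 0.37) and level in replicates 2 and 3 (-0.03). Per exon length, GINS4 made up 17.4% to 20.8% of the summed GINS level in sgHDAC7 and 14.7% to 16.7% in sgNT. GINS3 took 11.6% to 13.8% in sgHDAC7 and 13.8% to 16.3% in sgNT. The shares of GINS1 and GINS2 overlapped between groups, and no test of these shares was made.

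MCM10, which helps to activate the helicase and to bring in polymerase alpha, had 83.2, 88.2 and 86.1 CPM in sgHDAC7 and 82.1, 59.8 and 59.3 CPM in sgNT. The sgNT replicate 1 library was nearly as high as the sgHDAC7 libraries. The log2 ratio of the guides was 0.02 for replicate 1 and 0.55 for the other replicates. Over all libraries MCM10 was 1.28-fold higher (log2 fold change 0.36 ± 0.12, edgeR adjusted p = 0.144; 0.0239 in the replicate-adjusted fit). CDC45, the third component of the active helicase, had 66.7 to 75.8 CPM in sgHDAC7 and 58.3 to 70.0 CPM in sgNT (log2 fold change 0.11 ± 0.09).

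Primase and polymerase alpha, which lay down the first stretch of each new strand, stood at 213.1, 194.8 and 202.5 CPM in sgHDAC7 and 183.2, 181.3 and 180.9 CPM in sgNT as a sum. All 4 genes had positive log2 fold changes. POLA1, the catalytic subunit, had 69.8, 68.8 and 70.9 CPM in sgHDAC7 and 60.5, 55.6 and 57.7 CPM in sgNT. The groups did not overlap. POLA1 was 1.21-fold higher (log2 fold change 0.27 ± 0.07, edgeR adjusted p = 0.0781; 0.021 in the replicate-adjusted fit). PRIM2, the large primase subunit, had 37.4, 33.8 and 31.3 CPM against 27.6, 29.1 and 29.3 CPM. It did not overlap either, but passed in neither fit (log2 fold change 0.25 ± 0.10, edgeR adjusted p = 0.205 and 0.105). PRIM1 and POLA2 had log2 fold changes of 0.07 and 0.06 with overlapping groups. POLA2 shares 53.7% of its exon bases with another annotated protein-coding gene on the same strand, AP000944.2, so its counts may be incomplete.

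Delta and epsilon polymerases, which extend the lagging and the leading strand, changed little. POLD1, the catalytic subunit of delta, had 458.2, 414.2 and 417.7 CPM in sgHDAC7 and 372.3, 404.8 and 405.6 CPM in sgNT. The groups did not overlap, yet most of the difference lay in replicate 1 (log2 ratio 0.30 there and 0.04 in replicates 2 and 3; overall 0.13 ± 0.07, edgeR adjusted p = 0.353). POLE, the catalytic subunit of epsilon, had 288.4 to 299.2 CPM in sgHDAC7 and 290.7 to 315.2 CPM in sgNT. POLD2, POLD3 and POLE2 had log2 fold changes of 0.07, -0.13 and 0.19, and none of the 5 genes passed in either fit.

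PCNA, the sliding clamp, had 218.6, 198.3 and 214.2 CPM in sgHDAC7 and 207.8, 183.0 and 182.5 CPM in sgNT (log2 fold change 0.14 ± 0.07, edgeR adjusted p = 0.347). It passed in replicates 2 and 3 alone (log2 0.17, adjusted p = 0.0273). The clamp loader subunits RFC1 to RFC5 fell on both sides of 0, from -0.10 for RFC4 to 0.15 for RFC5. None of them passed with group alone, in the replicate-adjusted fit or in replicates 2 and 3 alone. RFC5 was the only loader gene without overlap, with 49.9 to 51.4 CPM in sgHDAC7 and 45.0 to 46.8 CPM in sgNT. Clamp and loader together stood at 102.6% of the control mean.

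None of the RPA genes, whose products coat single-stranded DNA, passed with group alone or in the replicate-adjusted fit. RPA1, the large subunit, had 119.9, 121.7 and 108.6 CPM in sgHDAC7 and 110.5, 97.7 and 98.0 CPM in sgNT (log2 fold change 0.19 ± 0.08, edgeR adjusted p = 0.21). It passed in replicates 2 and 3 alone (adjusted p = 0.0114) and without sgNT replicate 1 (0.041). RPA2, the middle subunit, was the only replication gene that was lower in all sgHDAC7 libraries, with 110.6, 104.3 and 109.6 CPM against 119.7, 120.9 and 118.2 CPM. The difference was small but even across replicates (log2 fold change -0.15 ± 0.06, unadjusted p = 0.0414, edgeR adjusted p = 0.236) and did not pass in any fit. RPA3 had 17.3 to 22.5 CPM in sgHDAC7 and 18.5 to 20.6 CPM in sgNT. As a sum the complex stood at 101.4% of the control mean.

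Both genes of Okazaki fragment maturation passed in the replicate-adjusted fit, where 5.78% of all genes were higher. LIG1, the ligase that seals the fragments, had 201.3, 203.6 and 190.4 CPM in sgHDAC7 and 173.9, 168.7 and 163.5 CPM in sgNT. Its groups lay apart in every replicate, with log2 ratios of 0.21 in replicate 1 and 0.24 in replicates 2 and 3 (overall 0.23 ± 0.06, edgeR adjusted p = 0.0778; 0.0153 in the replicate-adjusted fit). FEN1, the flap nuclease, had 153.4, 130.3 and 128.2 CPM against 140.0, 100.8 and 105.0 CPM. Replicate 1 was high under both guides, and sgNT replicate 1 lay above sgHDAC7 replicates 2 and 3 (log2 fold change 0.25 ± 0.13, edgeR adjusted p = 0.31; 0.0153 in the replicate-adjusted fit).

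Ribonucleotide reductase makes deoxynucleotides with a large subunit, RRM1, and a small subunit made mostly in S phase, RRM2. RRM2 had 215.6, 185.9 and 184.4 CPM in sgHDAC7 and 173.4, 112.5 and 113.0 CPM in sgNT. It showed the largest fold change of the 44 genes, 1.47-fold (log2 fold change 0.56 ± 0.16), and no overlap. Group alone gave an edgeR adjusted p of 0.0901, while the replicate-adjusted fit gave 0.000541 and DESeq2 gave 0.00908. RRM1 had 205.4, 162.5 and 171.8 CPM against 190.5, 172.1 and 164.3 CPM, a log2 fold change of 0.03 ± 0.10. Per exon length, RRM2 made up 47.7%, 49.9% and 48.3% of both subunits' level in sgHDAC7 and 44.2%, 36.2% and 37.5% in sgNT. TK1, the salvage thymidine kinase, had 302.0, 229.3 and 232.9 CPM against 242.6, 208.4 and 224.4 CPM (log2 fold change 0.18 ± 0.11, edgeR adjusted p = 0.411). For RRM2, 27.9% of exon bases are shared with the same-strand gene AC007240.1, and the processed pseudogene RRM2P3 is among the tested genes, so some of its reads may have been assigned elsewhere.

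Replicate 1 was high in replication genes under both guides. Of the 44 genes, 37 were higher in sgNT replicate 1 than in the mean of sgNT replicates 2 and 3 (51.6% of all genes were), and 32 were higher in sgHDAC7 replicate 1 (49% of all genes). In 28 genes (63.6%) replicate 1 was higher under both guides, against 30.2% of all genes, and in 3 lower under both (29.6% of all genes). The median excess of replicate 1 was 0.14 log2 units in sgNT and 0.05 in sgHDAC7. In sgNT it was largest in RRM2 (0.62, and 0.22 in sgHDAC7), MCM10 (0.46 and -0.07) and FEN1 (0.44 and 0.25). Between guides, the median log2 ratio was 0.10 for replicate 1 and 0.09 for the other replicates, with 31 and 34 of the 44 genes positive (70.5% and 77.3%, against 49.1% and 50.7% of all genes). All 8 genes that passed in the replicate-adjusted fit had positive ratios in both sets, and in all 8 the ratio was larger in replicates 2 and 3. These 8 were selected as higher by a fit on the same libraries, so their ratios are no independent support. Of all 44 genes, 29 had the larger ratio in replicates 2 and 3. RRM2 had 0.31 and 0.71, GINS4 0.30 and 0.60, and MCM4 0.24 and 0.42. With 1 replicate 1 library per guide, whether the guide difference itself differs between replicates was not tested.

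**Figure D4:**
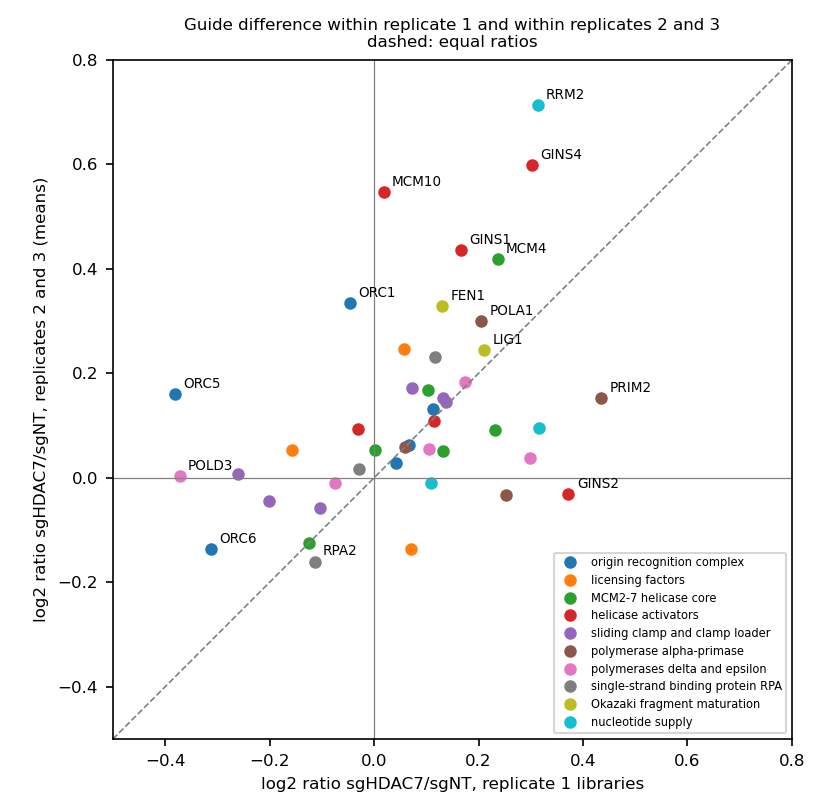
Log2 ratio of sgHDAC7 to sgNT for replicate 1 (horizontal axis) and for the means of replicates 2 and 3 (vertical axis) for the 44 replication genes, coloured by role. RRM2, GINS4, MCM10, GINS1 and MCM4 lie above the dashed line of equal ratios, while PRIM2 and GINS2 lie below it, and ORC5 and POLD3 are negative in replicate 1.

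Levels between genes were compared per exon length (CPM per kb of merged GENCODE 29 exons, basic set). In sgNT the ring genes ran from 136 ± 4.26 CPM per kb for MCM7 through MCM4 (110 ± 11.7) and MCM5 (97.6 ± 6.14) to MCM3 (88.03 ± 7.58), MCM2 (87.6 ± 6.14) and MCM6 (77.0 ± 4.09; SD, n = 3). MCM7 stood above MCM4 by more than their spread, while the neighbours from MCM4 to MCM2 lay within their summed SDs of each other. In sgHDAC7 MCM4 reached 140.5 ± 5.42 CPM per kb, close to MCM7 at 151 ± 2.18. PCNA (130 ± 9.83 in sgNT), TK1 (130 ± 9.91) and POLD1 (112 ± 5.39) lay near or within the range of the ring genes. The GINS genes were far lower and unequal, with GINS1 at 19.9 ± 2.98, GINS2 at 8.88 ± 0.45, GINS4 at 6.62 ± 0.69 and GINS3 at 6.33 ± 0.96 CPM per kb in sgNT. GINS4 and GINS3 did not differ beyond their spread there, and in sgHDAC7 GINS4 stood at 9.38 ± 0.55 and GINS3 at 6.56 ± 0.88. Among the ORC genes, ORC6 (37.4 ± 3.86 in sgNT) and ORC1 (21.5 ± 3.37) were the most abundant, and the other 4 lay between 12.15 and 15.6 CPM per kb. POLD3 (6.71 ± 0.82) was the scarcest polymerase subunit. Merged exons include untranslated and rarely used exons, so these levels are approximate. Besides GINS4, POLA2 and RRM2, other annotated genes overlap exons of MCM2 (30.7%, antisense), PRIM1 (26.0%, same strand), GINS3 (16.5%, antisense) and POLD1 (12.1%, same strand). Counts, levels and shares of these genes may be affected as well.

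**Figure D5:**
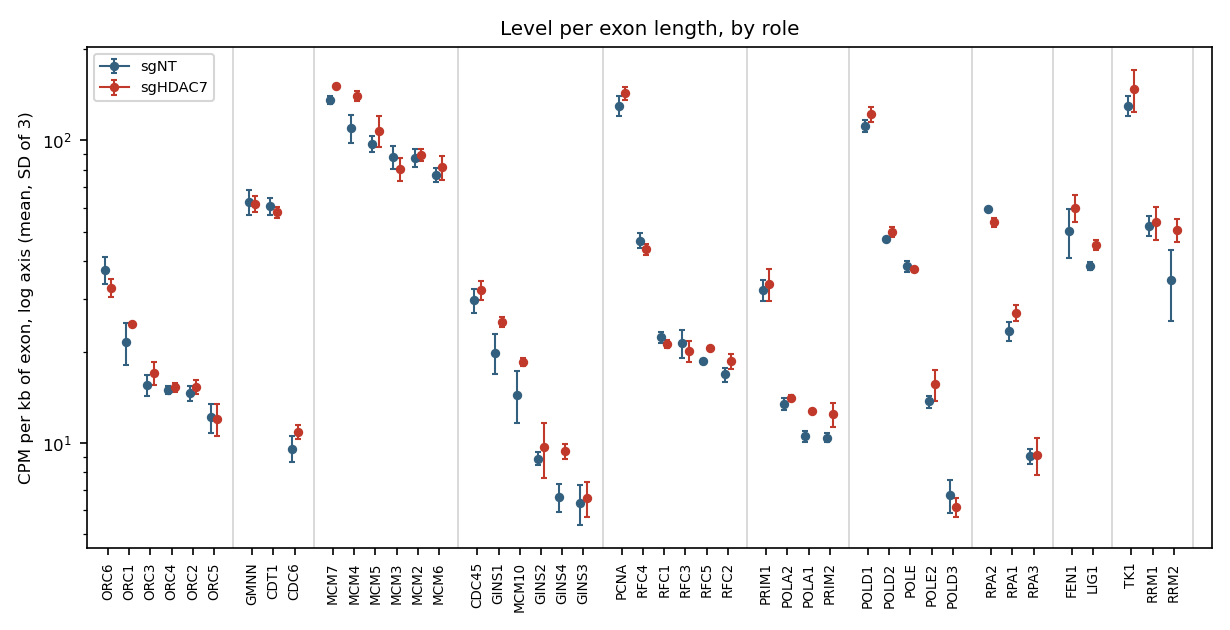
CPM per kb of exon (log axis) of the 44 genes, ordered by sgNT level within each role, sgNT in blue and sgHDAC7 in red, points being the mean and bars the SD of 3 libraries. The MCM ring, PCNA, POLD1 and TK1 are the most abundant messages, and GINS3, GINS4, POLD3, GINS2 and RPA3 the least.

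The wider replication pathway was read from lists of other genes. Of 14 tested firing and fork protection genes, 1 passed with group alone and 3 in the replicate-adjusted fit, all higher (median log2 fold change 0.08). Over all genes, 1.16% were higher with group alone and 5.78% in the replicate-adjusted fit. TIMELESS, a fork protection factor, had 115.9 ± 2.05 CPM in sgNT and 140.1 ± 3.01 CPM in sgHDAC7, a 1.21-fold rise (edgeR adjusted p = 0.0461). None of 14 other polymerase, clamp loader and topoisomerase genes passed with group alone, and 3 were higher in the replicate-adjusted fit. Of 10 other nucleotide supply enzymes, SHMT1, which makes one-carbon units for thymidylate, rose from 17.2 ± 1.35 to 26.8 ± 3.47 CPM (edgeR adjusted p = 0.0349). DCK, the salvage deoxycytidine kinase, fell from 138 ± 8.35 to 105 ± 7.73 CPM (edgeR adjusted p = 0.0324). Chromatin assembly genes (10 tested) and other helicase loading genes (9 tested) held no call in either fit. In replicates 2 and 3 alone, 3 chromatin assembly genes were higher and 0 lower (9.72% and 10.9% of all genes). That fit called 0 helicase loading genes. Of the other lists it called 4 firing genes higher and 1 lower, 3 polymerase genes higher, and 4 nucleotide supply enzymes higher and 2 lower.

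Among 25 tested genes of the E2F and RB network, MYBL2 alone passed with group alone. MYBL2 encodes B-MYB, an E2F target that acts in late S phase and G2. Its level was 317.5 ± 24.2 CPM in sgNT and 425.6 ± 7.85 CPM in sgHDAC7, a 1.34-fold rise (edgeR adjusted p = 0.02), and the list held 4 higher and 1 lower gene in the replicate-adjusted fit (5.78% and 6.81% of all genes). Mitotic genes (20 tested) did not share the direction, with a median log2 fold change of -0.06. Their summed level was 98.1% of the control mean, and 14 values were negative. Positive values made up 30%, against 49.7% of all genes. CDC20, an activator of the anaphase-promoting complex, was the only mitotic call with group alone (1.22-fold higher, edgeR adjusted p = 0.0369), where 1.16% of all genes were higher. The replicate-adjusted fit held 1 higher and 1 lower mitotic gene (5.78% and 6.81% of all genes). Replicates 2 and 3 alone gave 1 higher and 4 lower (9.72% and 10.9% of all genes). Whether replication and mitotic genes differ was not tested.

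Markers of an erythroid line were present. GATA1, TAL1 and KLF1 had 198.2 to 440.3 CPM in every library. The summed level of the 11 erythroid and progenitor markers was 14630 to 19660 CPM for the HDAC7 guide against 10480 to 14890 CPM in controls, mostly HBG2. None of the 11 passed with group alone. In the replicate-adjusted fit EPOR, TFRC, HBG2 and ALAS2 were higher and CD34 was lower (5.78% and 6.81% of all genes). CD34, a progenitor marker, had a log2 fold change of -0.55 in that fit (edgeR adjusted p = 0.0192). Group alone gave -0.65 for CD34 (edgeR adjusted p = 0.533), and replicates 2 and 3 alone gave -0.28 (0.179). Both libraries numbered 1 were rich in CD34, with 30.2 (sgHDAC7) and 56.8 CPM (sgNT). All others had between 12.55 and 16.06 CPM. Of the 11 markers, 9 were lower in replicate 1 than in the mean of replicates 2 and 3 under both guides. Over all genes 29.6% were. Only 1 of the 11 was higher under both guides (30.2% of all genes). The median log2 difference of replicate 1 was -0.29 in sgNT and -0.15 in sgHDAC7. KIT, another progenitor marker, had 1.7 to 2.16 CPM in sgHDAC7 and 2.77 to 4.85 CPM in sgNT, without overlap. It did not pass with group alone or in the replicate-adjusted fit (edgeR adjusted p = 0.113 and 0.0558). In replicates 2 and 3 alone KIT was lower (log2 -1.17, edgeR adjusted p = 0.0136). Of 10 myeloid markers 3 were tested, and their sum was 118.4 to 127.2 CPM in sgHDAC7 and 153.7 to 161 CPM in sgNT, with ITGAM called lower (edgeR adjusted p = 0.0305). CD14, ELANE, CEBPE, FCGR3B, S100A8 and S100A9 are not analysed here. Of 10 lymphoid markers 4 were tested, with sums of 32.8 to 35.7 and 36.1 to 42.6 CPM. Mitochondrially encoded messages took 2.72% to 3.96% of counts, lowest in sgNT replicate 3. The part of these differences in the replication results was not tested.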

How the data were processed

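Poly-T beads captured the messenger RNA and random hexamers primed the cDNA, per the labels' protocols. The authors deposited 1 table of 6 libraries. Its name says CPM, but 100% of its values are whole and column totals differ, so the deposited values were treated as raw counts per gene. The submitters' processing notes name hg38 and edgeR 3.32.1, with no role. No aligner, counter, annotation or strand setting is given in the sources used here. Columns named NC were taken as sgNT, the only other group, and 0 further columns hold values.

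The guides were compared in R 4.3.3 with edgeR 4.0.16 (quasi-likelihood test, TMM scaling, group as the only term). The 13841 genes whose mean CPM reached 1 were tested, two-sided, with p-values adjusted over all of them by Benjamini-Hochberg and a threshold of 0.05. Values after a log2 fold change are its standard error, derived from the F statistic, and those after a CPM value are the SD over 3 libraries. CPM is TMM-scaled. Library log2 ratios used a pseudocount of 0.5. Positions and exon lengths come from GENCODE 29 (GRCh38). The fits were also run on simulated counts drawn without a replicate 1 shift. That run therefore cannot test how the replicate-adjusted fit behaves under such a shift. Alternatives were DESeq2 1.42.0, limma 3.58.1, other scalings and filters, a replicate block, a replicate 1 term, replicates 2 and 3 alone and each library left out.

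The members and all gene lists were chosen with earlier results of these data known. All 44 members could be named, and from each other list up to 4 genes, those of lowest adjusted p in the fit with group alone, if below 0.05. Marker genes and the MCM, GINS, RRM and geminin shares were chosen beside this rule. Mitochondrial names were matched to the table's spelling after it was seen.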

Additional observations from a re-analysis of the deposited data

How the results depend on the processing

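With group alone, 396 of 13841 genes were called and 1 of the 44 replication genes was higher. DESeq2 called 710 genes (288 higher, 422 lower) and 3 replication genes. The fit without the filter on low values called 2 replication genes. The replicate 1 term gave 1743 calls (800 higher, 943 lower) and 8 replication genes, and replicates 2 and 3 alone gave 2847 (1345 and 1502) and 13. The other scalings, pseudocounts and the stricter filter stayed within 1.5 times of 396 calls. Leaving out a library gave 27 (without sgHDAC7 replicate 2) to 1588 calls (without sgNT replicate 1), with 13 to 732 higher and 13 to 856 lower. Replication genes called higher then ran from 0 to 10, and their median log2 fold change from 0.0399 (without sgHDAC7 replicate 1) to 0.1343. The cause of these changes was not tested.

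The replicate block gave 998 calls (430 higher, 568 lower), with 6 replication genes higher, GINS4, MCM4, GINS1, FEN1, LIG1 and RRM2 (3.11% of all genes were higher). Deviations of same-numbered libraries correlated by 0.303, 0.107 and 0.097. Crossed pairs that held a replicate 1 library correlated by -0.216 to -0.179. However, sgHDAC7 replicate 2 correlated better with sgNT replicate 3 (0.159) than with sgNT replicate 2. The numbers 2 and 3 were therefore not taken to pair libraries outside the replicate block. The replicate-adjusted fit and the replicate 1 ratios do set the libraries numbered 1 together.

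Members that changed sign were not called with group alone. RPA3 had a log2 value of -0.0096 with library totals alone. In replicates 2 and 3 alone, the log2 values were 0.1642 for ORC5, 0.058 for GMNN, -0.0291 for GINS2, 0.0084 for RFC3, -0.0344 for PRIM1, 0.0077 for POLD3 and -0.009 for RRM1. Over the 6 fits that each left out a library, log2 values ranged as follows: ORC5 -0.1135 to 0.0758, MCM2 -0.015 to 0.0862, MCM6 -0.001 to 0.1315, GINS2 -0.0513 to 0.2531, GINS3 -0.0366 to 0.1834, PRIM1 -0.0293 to 0.1476, RRM1 -0.0797 to 0.0973, GMNN -0.0654 to 0.0625, RPA3 -0.1142 to 0.0838 and POLE -0.0554 to 0.0036. Groups of 3 and differences near the spread between libraries limit what can be called.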
